A study of Rattus norvegicus with 2 samples.

Results

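The chemokine, interleukin and receptor genes were taken as all rat genes on the array whose symbol starts with Ccl, Cxcl, Ccr, Cxcr or Il followed directly by a number. The rule found 126 probes for 116 genes, of 30359 probes and 15164 gene symbols in all. The rat gene table held 131 such symbols, and the other 15, among them Il1r1, Il15ra, Il17rc and Cxcl3, matched no probe and were not analysed here.

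Both groups held primary rat dental papilla cells, the tooth mesenchyme that gives rise to odontoblasts, isolated at postnatal day 1 to 3, used at passage 3 to 4 and kept for 3 days in odontogenic induction medium (OS). That medium held 10 mM β-glycerophosphate, 0.2 mM ascorbic acid, 8% serum and 0.1 mM dexamethasone, a synthetic glucocorticoid, so the untreated cells were under a glucocorticoid too. The groups were OS alone and OS with 10 nM melatonin, the pineal hormone, and the study asked what melatonin does to gene expression during odontoblastic differentiation. Each group was read by 1 single-colour Agilent array, and the labels do not say whether an array read 1 culture or a pool. There was therefore no replicate error between cultures and no test between the groups, and each ratio compares these 2 arrays. Papilla markers were present (Col1a1, Vim, Msx1, Pax9 and 8 others of 13 were well above background on both arrays, and Eng in OS alone).

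Chemokines are small secreted proteins that guide migrating cells through G protein-coupled receptors, named by the spacing of their first cysteines (CC or CXC). Interleukins are secreted signals that mostly act through receptor chains shared between several ligands, with JAK and STAT proteins or MYD88 and NF-kB downstream. In the tooth, mesenchymal and pulp cells are known to make chemokines when bacteria or inflammatory signals reach them, and glucocorticoids are known to hold down many of these genes.

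Most of the family gave no signal well above background in these cultures. A gene was counted as measured when a probe was well above background on both arrays by the scanner software's flag, and 26 of the 116 members (22.4%) were, against 54.3% of all gene symbols on the array. A further 9 members were detected in OS alone (7.76%, against 6.44% of all symbols), 1 (Cxcl9) in melatonin alone (0.862% against 0.132%), and 80 in neither (69.0% against 39.1%). The share in OS alone was thus near that of the whole array. By class, 11 of 33 interleukin receptor genes, 8 of 31 chemokine ligands, 5 of 33 interleukins, 1 of 3 soluble inhibitors and 1 of 16 chemokine receptors were measured. Receptor chains for interleukins were thus the class with the most measured members, and chemokine receptors nearly all lay at background.

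**Figure D1:**
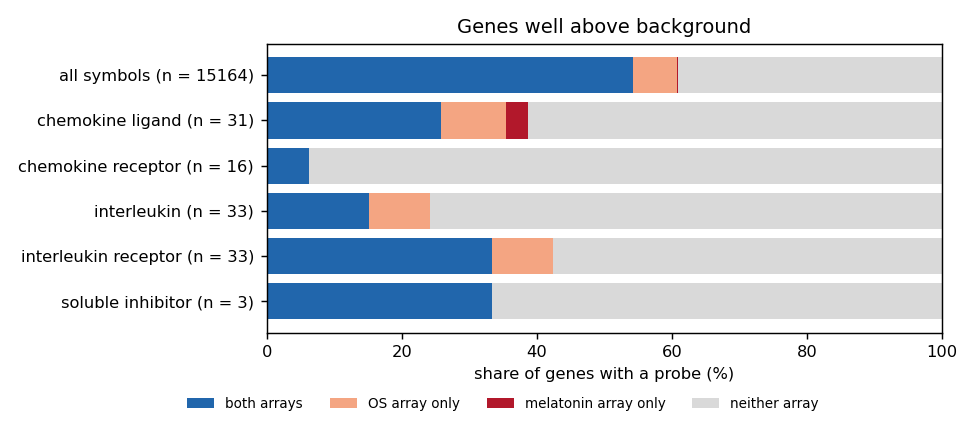
Share of genes (percent, horizontal axis) well above background on both arrays, on the OS array only, on the melatonin array only or on neither, for all gene symbols and for the 5 classes of members. Of all symbols, 54.3% lay in the first class, against 6.25% of the chemokine receptors and 33.3% of the interleukin receptors; 2 symbols detected by different probes on each array are not drawn.

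The genes at background included the best known inflammatory signals. Il1b, Il6 and Ccl3 were each read by a probe printed in 10 spots and Il1a by 2 probes, 1 of them printed in 10 spots, and no spot of these 4 genes was well above background on either array. The Il6 probe had processed signals of 19.8 (OS) and 14.7 (melatonin), where the lowest signals called well above background were 20.7 and 29.6. Those of Il1b, which encodes the main secreted form of interleukin 1, were 4.85 and 7.56. Genes for Cxcl10, Cxcl2, Ccl4, Il10, Il4, Il13 and Il17a were also at background on both arrays. The other interleukins at background were Il2, Il3, Il5, Il7, Il9, Il12a, Il12b, Il17c, Il17f, Il18, Il21, Il22, Il24, Il25, Il1f10, Il36a, Il36b and Il36g, and the other chemokines Ccl1, Ccl6, Ccl11, Ccl12, Ccl17, Ccl19, Ccl21, Ccl25, Ccl26, Ccl28, Cxcl6, Cxcl11, Cxcl13, Cxcl14 and Cxcl17. The software also marks dimmer spots whose signal is significantly above 0, and by that mark 18 of the 80 members passed on both arrays, 12 in OS alone, 16 in melatonin alone and 34 in neither. Of the 5934 symbols on the array that failed the first flag on both arrays, 29.9% passed on both, 17.3% in OS alone, 14.4% in melatonin alone and 38.4% in neither. Failing the first flag says that no transcript was detectable well above background by these probes, not that none was there.

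Relative signal below means the processed signal divided by its array's 75th percentile over all probes (428 for OS and 329 for melatonin), which puts the 2 arrays on one scale. It is compared here between arrays for the same probe, not between genes, since probes differ in how brightly they hybridise. No measured member differed by 2-fold between the arrays. Over all 8231 measured genes, 0.255% were at least 2-fold higher and 0.705% at least 2-fold lower with melatonin, so a list of 26 genes with none past that threshold lies near the background. Only Il2rg was past 1.5-fold, on the lower side, against 2.64% of all measured genes at least 1.5-fold lower, while 2.03% were at least 1.5-fold higher and no member was. In all 12 members had a ratio above 0 on the log2 scale and 14 below, against 4740 and 3491 of all measured genes. The median log2 ratio was -0.0017 against 0.039 over all measured genes, and the SD was 0.27 against 0.29. The spread of the members was thus close in size to that of the whole profile.

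**Figure D2:**
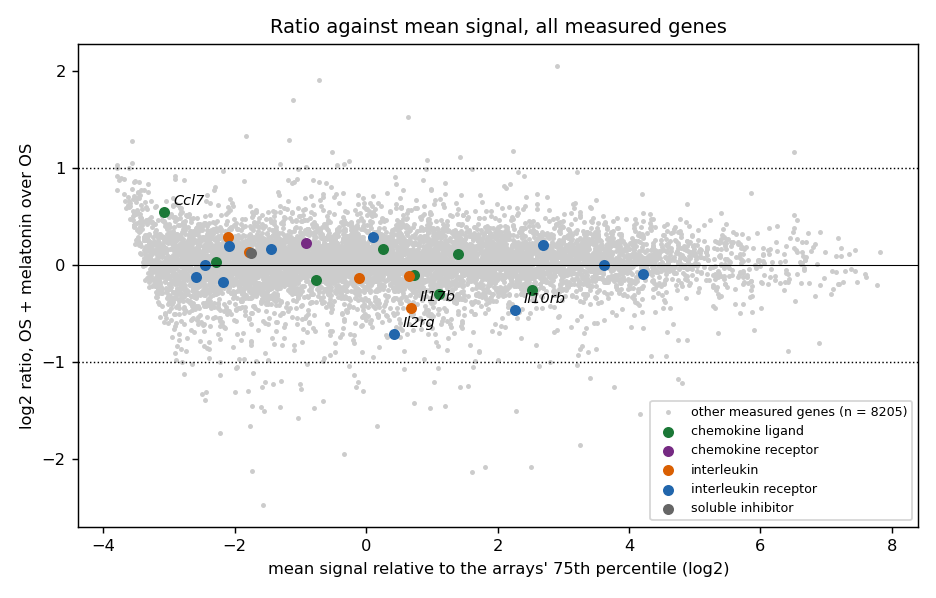
Log2 ratio of OS with melatonin over OS (vertical axis) against the mean relative signal of both arrays on the log2 scale (horizontal axis), for the 26 members by class and the other 8205 measured genes in grey; dotted lines mark 2-fold. All 26 members lie inside the dotted lines, with Il2rg lowest at -0.71 and Ccl7 highest at 0.54.

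The error of these ratios is known only within the arrays. The scanner software gives an error for each spot, from which the log2 ratio of a member had an error between 0.14 and 0.32 (median 0.21). For spots above background on both arrays that error was close to 10% of the signal (medians 10.03% in OS and 10.1% with melatonin). It is the software's own estimate, nearly a fixed share of the signal for all but dim spots. It is not a spread measured between spots. Of the 26 members, 19 were read by a single spot. Another 3 were read by 2 single-spot probes, and 4 (Ccl2, Ccl27, Cxcl1 and Il6r) by a probe with 9 or 10 usable spots, for which the SD between spots is given. Of the 26 members 3 (11.5%) lay more than 2 software errors from 0, against 9.80% of all measured genes. These 3 were Il2rg, Il10rb and Il17b, all lower with melatonin. For the 4 members with 9 or 10 spots, the software error in this count was that of a single spot. By the SE between its 9 spots (0.052), Ccl2, with a log2 ratio of 0.17, lay more than 2 errors above 0, while Ccl27, Cxcl1 and Il6r did not by theirs. That SE is small beside the SD of 0.29 over the ratios of all measured genes. The share of all genes past such an SE is not given here, so the Ccl2 count does not set it apart.

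**Figure D3:**
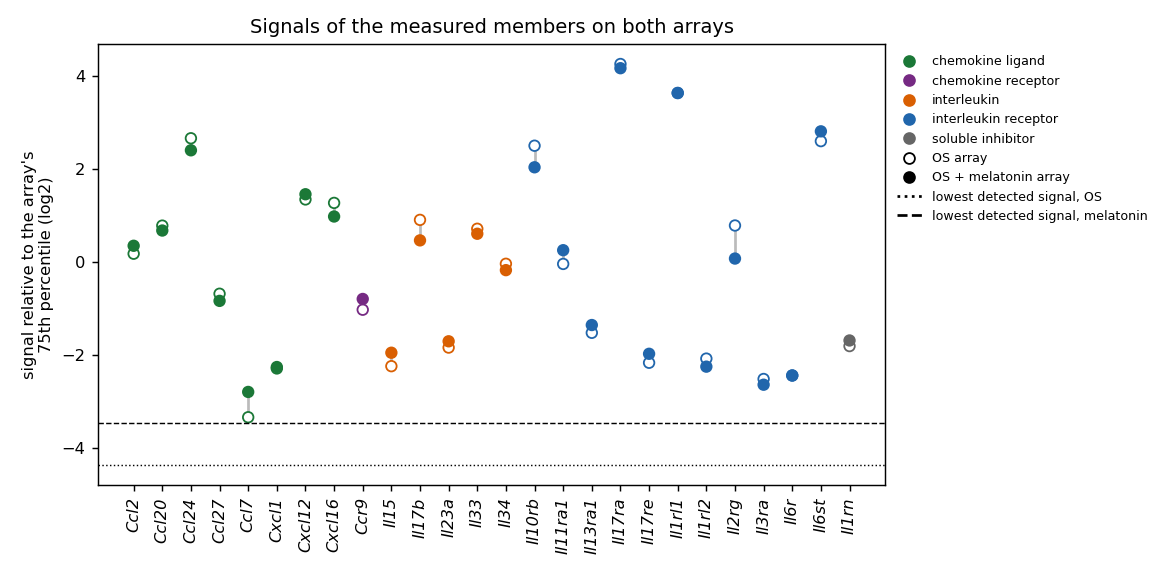
Relative signal on the log2 scale (vertical axis) of the 26 measured members on the OS array (open circles) and the melatonin array (filled circles), coloured by class, with the lowest signal called well above background on each array as a dotted and a dashed line. The circles of a gene lie close together, with the widest gaps at Il2rg and Ccl7, and the OS circle of Ccl7 lies just above the dashed line.

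Among the chemokine ligands, Ccl7 stood highest with melatonin and Cxcl16 lowest, and the 8 measured ligands were split evenly, 4 above 0 and 4 below. Ccl2, the main attractant of monocytes, had a relative signal of 1.12 in OS and 1.27 with melatonin (every pair of relative signals below is in that order), a log2 ratio of 0.17 with an SD between 9 spots of 0.15. Of these spots 8 of 9 had a ratio above 0, between -0.031 and 0.47. Ccl7, a related attractant of monocytes that lies next to Ccl2 in the rat gene order, had 0.098 and 0.14, a ratio of 1.46-fold read by 1 spot (log2 ratio 0.54, software error 0.32). That OS signal was close to the lowest signal that would count as detected on the melatonin array (0.090 in the same unit), so a gene this dim could pass on both arrays only if it was not much lower with melatonin. Low signals also shifted upward as a whole, since the negative control spots had a log2 ratio of 0.87 after scaling and probes at background on both arrays a median of 0.83. The part of either in the Ccl7 ratio was not tested, and 2.66% of all measured genes had a ratio at least as high.

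Cxcl12, the stromal chemokine that holds stem and progenitor cells in their niche, was read by 2 probes for different transcripts, and they disagreed in sign. The probe for transcript NM_022177 had relative signals of 2.57 and 3.49, a log2 ratio of 0.44. The probe for NM_001033883 had 2.49 and 2.14, a log2 ratio of -0.22. With a software error of 0.20 for each, the probes differ by more than that error, and their mean of 0.11 describes neither. Of the 2 receptors of Cxcl12, Cxcr4 was at background on both arrays, and the scavenging receptor Ackr3, which falls outside the naming rule, was measured at 2.11 and 2.15.

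Ccl20, the ligand of Ccr6 that draws in dendritic cells and a class of helper T cells, was also read by 2 probes. One had relative signals of 1.54 and 1.26 (log2 ratio -0.29, software error 0.21) and the other 1.90 and 2.00 (0.078, error 0.20), so its direction is unsettled, and Ccr6 was at background. Cxcl1, a neutrophil attractant, had 0.20 and 0.21 with a log2 ratio of 0.030 and an SD between 10 spots of 0.16. Its receptors Cxcr1 and Cxcr2 were at background, and so were the related ligands Cxcl2 and Cxcl6. The Cxcl1 ratio lay within the spread between its spots.

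Ccl24, an eotaxin that attracts eosinophils through Ccr3, had 6.29 and 5.26 (1.20-fold lower, log2 ratio -0.26). Cxcl16, a chemokine made as a membrane protein that binds Cxcr6, had 2.40 and 1.96 (1.22-fold lower, log2 ratio -0.29). Ccl27, known as a chemokine of skin, had 0.62 and 0.56 with a log2 ratio of -0.15 and an SD of 0.35 over 10 spots, with 3 spots above 0 and 7 below. Its gene overlaps that of Il11ra1 in the rat gene table, which makes the assignment of either signal less certain. For Ccl24, Cxcl16 and Ccl27 the receptors Ccr3, Cxcr6 and Ccr10 were at background.

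Many of these genes lie in clusters, and measured genes stood beside genes at background. Of 32 pairs of members that are direct neighbours among protein-coding genes, 3 had both genes measured (Ccl2 with Ccl7, Il11ra1 with Ccl27, and Il1rl2 with Il1rl1), 6 had 1 measured and 23 had none. With 22.4% of members measured, mixed pairs arise for unrelated genes too. The same count over neighbouring pairs of all genes is not given here, so these counts only describe the pairs. Beside Ccl2 and Ccl7, the next genes Ccl11, Ccl12 and Ccl1 were at background, and Cxcl1 was measured while its neighbour Cxcl2 was not. As examples of upstream sequence in the family, not only from these pairs, stretches of 100 bases from within the 250 before the RefSeq transcript start are given below. They are shown for 3 measured chemokines and for 3 genes at background (assembly GRCr8, 5′ to 3′ along the gene). They were picked because each holds a match to the NF-kB consensus, the DNA motif of the factor that drives many inflammatory genes, and capitals mark the matched bases, with overlapping matches joined. Each stretch was centred on its match nearest the start and ends some bases short of the start.
Cxcl1, measured, chr14:17479350-17479449, minus strand: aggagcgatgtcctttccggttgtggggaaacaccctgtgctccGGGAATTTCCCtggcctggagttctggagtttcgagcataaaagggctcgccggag
Ccl20, measured, chr9:91837025-91837124, plus strand: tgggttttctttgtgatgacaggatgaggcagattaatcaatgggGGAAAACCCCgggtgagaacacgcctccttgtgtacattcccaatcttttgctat
Ccl7, measured, chr10:67513991-67514090, plus strand: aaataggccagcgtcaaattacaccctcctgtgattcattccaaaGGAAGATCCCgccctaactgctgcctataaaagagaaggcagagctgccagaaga
Cxcl2, at background, chr14:17467274-17467373, minus strand: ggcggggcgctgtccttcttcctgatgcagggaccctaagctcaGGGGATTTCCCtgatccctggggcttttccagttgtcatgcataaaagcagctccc
Cxcl6, at background, chr14:17596450-17596549, minus strand: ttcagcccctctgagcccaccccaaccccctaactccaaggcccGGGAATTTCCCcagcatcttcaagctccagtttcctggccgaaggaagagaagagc
Il6, at background, chr4:5894589-5894688, minus strand: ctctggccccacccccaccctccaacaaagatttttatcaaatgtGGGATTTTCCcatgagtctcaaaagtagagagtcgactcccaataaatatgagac

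In the 250 bases before the start, on either strand, 14 of the 89 members with a promoter in the RefSeq table (15.7%) held the NF-kB consensus, against 6.33% of all 33469 promoters. Members entered with their first listed promoter only. The 33469 are all listed promoters, not reduced to a single one per gene or to genes on the array, so the units compared here differ. Among measured members it was in 3 of 20, and among members at background on both arrays in 10 of 62. The AP-1 motif TGANTCA, on either strand, was in 11 of 89 members (12.4%) against 6.34% of all promoters, in 2 of the 20 measured members and 7 of the 62 at background. The letters TATAAA, on either strand, were in 20 of 89 members (22.5%) against 12.9% of all promoters, in 4 of the 20 and 15 of the 62. The Cxcl1 and Cxcl6 stretches above hold the same matched bases while only Cxcl1 was measured. A match describes letters alone, and nothing in this series measures binding.

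Ccr9, the receptor of Ccl25 best known in thymus and gut, was the only chemokine receptor measured, with 0.49 and 0.57 (log2 ratio 0.23, software error 0.21, 1 spot). Its ligand Ccl25 was at background. The other 15 chemokine receptor genes were at background on both arrays, among them Ccr2, the receptor of Ccl2 and Ccl7. Ligand and receptor were thus not measured together for any member chemokine, the Cxcl12 receptor Ackr3 being outside the rule.

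Of the interleukins themselves, 5 were measured, 3 of them lower with melatonin and 2 higher. Il17b, a member of the interleukin 17 family known from cartilage and nerve, had 1.86 and 1.37, 1.36-fold lower (log2 ratio -0.44, software error 0.21, 1 spot). Its receptor chain Il17rb was at background. Il33, a nuclear protein released from damaged stromal and epithelial cells, had 1.63 and 1.51 (log2 ratio -0.11). Il34, a second ligand of the macrophage receptor Csf1r, had 0.97 and 0.88 (log2 ratio -0.14). Il15, which sustains natural killer and memory T cells, had 0.21 and 0.26, 1.22-fold higher (log2 ratio 0.29, software error 0.24). Il23a, which forms interleukin 23 only together with the Il12b product, had 0.28 and 0.30 (log2 ratio 0.13), and Il12b was at background. For Il33, Il34 and Il23a the ratio was smaller than its error.

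Il1rn, the secreted antagonist that blocks the interleukin 1 receptor, was measured while both of the agonist genes Il1a and Il1b were not. It had 0.28 and 0.31, a log2 ratio of 0.12 that is smaller than its software error of 0.23. The other genes classed here as soluble inhibitors, Il36rn and Il18bp, were at background.

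The largest difference among the interleukin receptors, and among all measured members, was that of Il2rg. This gene encodes the common gamma chain, which the receptors for interleukins 2, 4, 7, 9, 15 and 21 share and whose loss causes severe combined immunodeficiency. Its relative signals were 1.71 and 1.05, 1.64-fold lower (log2 ratio -0.71, software error 0.21, 1 spot). Of the measured genes split into 4 equal bins of mean signal, the central 95% of those in its bin had log2 ratios between -0.58 and 0.52, and over all measured genes 1.65% were as low or lower. Of the chains that pair with it, Il2ra, Il2rb, Il7r, Il9r and Il21r were at background on both arrays, and Il4r was detected in OS alone. Jak3, the kinase that binds the common gamma chain, had 6.90 and 6.76 (log2 ratio -0.029).

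Leukocyte markers were followed beside this value because Il2rg is a gene of blood cells. Of 17 leukocyte markers on the array 9 were measured, close to the 54.3% of all symbols. Of the 9, 6 were lower with melatonin, against 3491 of all 8231 measured genes. The relative signals of the 9 summed to 3.91 in OS and 2.92 with melatonin. Such a sum weighs bright probes most, and without Lyz2 it was 3.12 and 2.78. The myeloid lysozyme gene Lyz2 was 5.54-fold lower, Laptm5 1.71-fold and Cd68 1.53-fold, each read by 1 spot. With melatonin Lyz2 stood at 0.14 and Cd68 at 0.15, near the lowest detected signal of that array (0.090). Cd14 stood at -0.069, Csf1r at 0.20, Aif1 at 0.072 and Fcer1g at -0.034 on the log2 scale. The T cell genes Cd3d and Cd3g were measured too. Cd3d had 0.18 and 0.14 (log2 ratio -0.42, 10 spots), and Cd3g had 0.099 and 0.10 (log2 ratio 0.039, 9 spots). Ptprc, the pan-leukocyte gene, was at background on both arrays, as were Itgam, Cd3e, Cd4, Cd8a and Nkg7. Their part in the Il2rg value was not tested, and in bulk RNA fewer cells of a type and less RNA per cell cannot be told apart. Of 7 endothelial markers 3 were measured, summing to 1.54 and 1.41, and of 8 epithelial markers only Tp63, at 0.70 and 0.68.

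Il10rb, the chain shared by the receptors for interleukins 10 and 22 and for type III interferons, had 5.63 and 4.08, 1.38-fold lower (log2 ratio -0.46, software error 0.20, 1 spot). Over all measured genes 4.26% were as low or lower. Its partners Il10ra, Il20ra and Il22ra1 failed the detection flag on both arrays.

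Of the gp130 branch 3 member chains were measured, while Il27ra had no probe. Il6st, which encodes gp130, the signalling chain for interleukins 6 and 11 and their relatives, had 6.03 and 6.98 (1.16-fold higher, log2 ratio 0.21, software error 0.20). Il11ra1, whose human counterpart is linked to premature skull suture fusion and extra or late teeth, had 0.97 and 1.19 (1.23-fold higher, log2 ratio 0.30, software error 0.21). Il6r had 0.18 on both arrays, a log2 ratio of -0.00043 with an SD of 0.14 between 10 spots. The ligand Il6 was at background, and Il11 was detected in OS alone. Outside the naming rule, the gp130 ligands Ctf1 and Cntf were measured with log2 ratios of 0.046 and 0.025. Lif, Osm and the receptor chains Lifr and Cntfr were at background, and the receptor chain Osmr was detected in OS alone.

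The gene for the interleukin 33 receptor gave a signal by 1 of its 2 probes, and the ligand gene Il33 was measured too. Il1rl1, also called ST2, had 12.4 and 12.3 by the probe for transcript NM_013037 (log2 ratio -0.0029). Its other probe, for NM_001127689, failed the detection flag on both arrays. Which form of the receptor protein each transcript encodes was not examined here. The partner chain Il1rap was at background, and Il1rl2, the receptor chain for interleukin 36, had 0.24 and 0.21 (log2 ratio -0.17, software error 0.26). The 3 interleukin 36 genes on the array (Il36a, Il36b and Il36g) were at background.

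Il17ra, the chain shared by receptors of the interleukin 17 family, had 19.0 and 17.9 (log2 ratio -0.090). Il17re, its partner for interleukin 17C, had 0.22 and 0.25 (log2 ratio 0.19, software error 0.25), while the ligand genes Il17a, Il17c, Il17f and Il25 were at background. Il13ra1, which pairs with Il4r to bind interleukins 4 and 13, was read by 2 probes, one with 0.10 and 0.12 (log2 ratio 0.21) and one with 1.19 and 1.30 (log2 ratio 0.13). The OS signal of the dimmer Il13ra1 probe was close to the lowest detected signal of the melatonin array (0.090). Like Ccl7, that probe could pass on both arrays only if it was not much lower with melatonin, so its sign adds little. Il3ra, the specific chain for interleukin 3, had 0.17 and 0.16 by 1 probe (log2 ratio -0.12), and its other probe was detected in OS alone, at 0.098 against 0.044 with melatonin. All of these ratios were smaller than their software errors, apart from that second Il3ra probe, for which no ratio between measured signals exists.

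**Figure D4:**
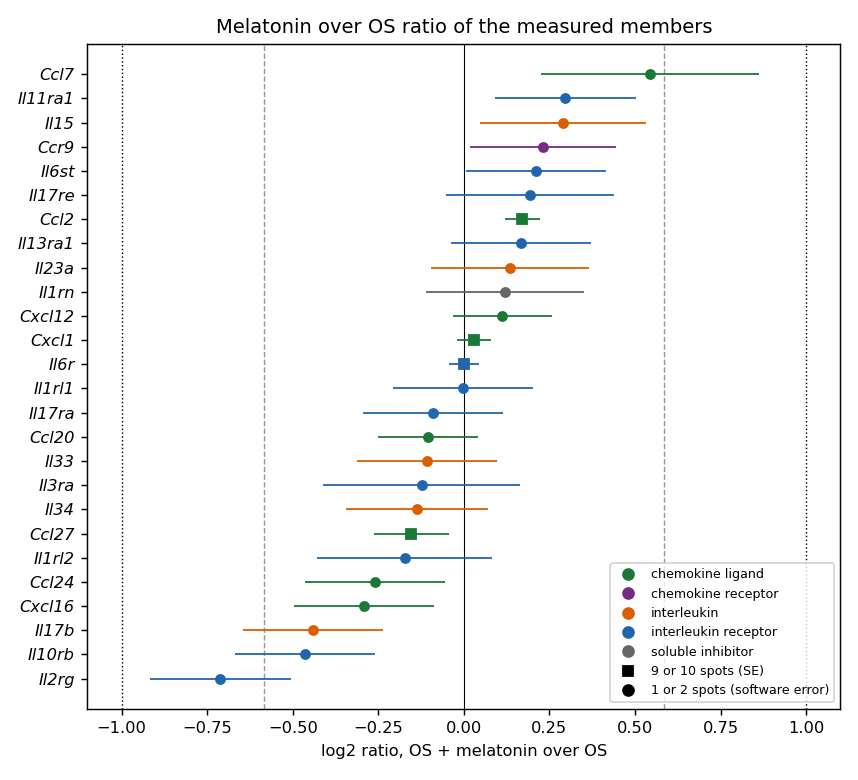
Log2 ratio of OS with melatonin over OS (horizontal axis) for each of the 26 measured members, sorted, coloured by class; bars show the software error for genes read by 1 or 2 spots (circles) or the SE between spots for those read by 9 or 10 (squares), dashed lines 1.5-fold and dotted lines 2-fold. Il2rg at -0.71 is the only gene beyond a dashed line, and the bars cover error within the arrays, not between cultures.

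For members above background on 1 array only, the ratio is a bound, taken as the brighter signal over the higher of the dim signal and the lowest signal called well above background on that array. Cxcl9, an interferon-induced chemokine that attracts T cells, had 0.032 and 0.12 and was at least 2.43-fold higher with melatonin. The lowest detected signal of the OS array was 0.048 in the same unit. The bound rests on 1 spot with a processed signal of 38.8, which is 1.31-fold the melatonin array's own lowest detected signal of 29.6. The upward shift of low signals with melatonin, given beside Ccl7, bears on a gene this dim too, and its part in the Cxcl9 bound was not tested. The related chemokines Cxcl10, its direct neighbour, and Cxcl11, known to be induced by the same interferon, were at background on both arrays. The 9 members detected in OS alone (Ccl5, Ccl9, Ccl22, Il11, Il16, Il20, Il1r2, Il4r and Il13ra2) had relative signals between 0.050 and 0.085 there, all under the lowest detected signal of the melatonin array (0.090), so no fold could be given for any of them. Ccl5, which attracts T cells and monocytes, was the brightest of these at 0.085 against 0.041. Detection in OS alone gives no direction, since the dim signals went both ways. Ccl22 (0.054 and 0.067), Il1r2 (0.050 and 0.064) and Il13ra2 (0.083 and 0.086) had the higher relative signal with melatonin. Ccl9, Il11, Il16, Il20 and Il4r, like Ccl5, had the lower.

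The other genes of cytokine and chemokine signalling were taken from a list of 79 that the naming rule does not cover. Of 67 on the array 39 were measured, where 54.3% of all symbols were. Of these 28 had a log2 ratio above 0 and 11 below, against 4740 and 3491 of all 8231 measured genes. Their median was 0.060, against 0.039 over all measured genes. None was past 1.5-fold, and 95.3% of all measured genes lay within it. The 4 furthest from 0 were Tnfrsf1a, the main receptor of TNF, 1.36-fold higher (6.65 and 9.07), Csf3, the neutrophil growth factor, 1.27-fold higher (0.40 and 0.51), Ikbkb, a kinase that activates NF-kB, 1.27-fold lower (1.12 and 0.88), and Ptgs2, the inducible cyclooxygenase, 1.25-fold higher (0.32 and 0.39). Within the branch from the interleukin 1 receptor to NF-kB, Myd88 was 1.22-fold higher, Irak1 and Irak2 stood at 0.060 and 0.054 on the log2 scale, Rela was 1.20-fold lower and its inhibitor Nfkbia stood at 0.050. Tnf itself was at background on both arrays, as were Socs1, Socs2 and Socs3, the feedback inhibitors of JAK and STAT signalling. The ligand Csf1, which shares its receptor with Il34, had a log2 ratio of 0.00036 over 8 spots.

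**Figure D5:**
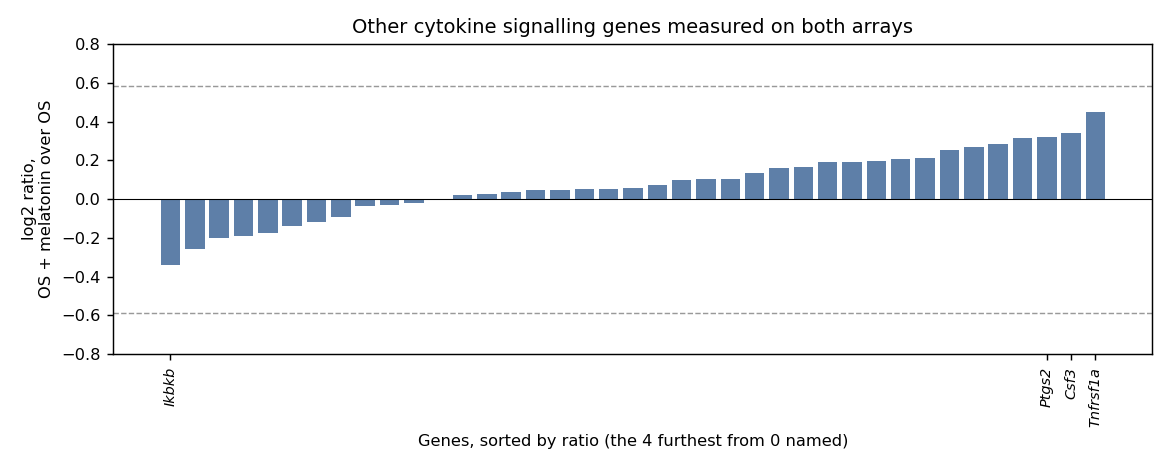
Log2 ratio of OS with melatonin over OS (vertical axis, bars from 0) for the 39 measured genes of the list of other cytokine signalling genes, sorted, with the 4 furthest from 0 named; dashed lines mark 1.5-fold. No bar reaches a dashed line, and the ends are Ikbkb at -0.34 and Tnfrsf1a at 0.45.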

How the data were processed

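Total RNA labelled with Cy3 was read on 1 array per group, both on the same slide. The deposited scanner files hold intensity values extracted with Agilent Feature Extraction 11.0.1.1 for array design 028282, per the file headers; that software subtracted background and removed spatial trends, with no normalization between arrays. The series' table holds log2 values deposited by the authors, with a median of 5.10 on each array and Pearson correlations of 0.9997 and 0.9988 with log2 of the scanner signal across probes; the sources used here do not name their normalization. The files name builds and accessions but no gene symbols, so symbols came from matching RefSeq accessions to the GRCr8 gene table (59.3% of probes), and promoter sequences from RefSeq's GRCr8 table (89 of 116 members).

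Outlier spots on either array (937 of 42877 outside the controls) were left out, log2 signals of a probe's spots were averaged, and each array's 75th percentile over probes was subtracted. A probe was detected when at least 50% of its spots carried the well above background flag; probes detected on both arrays were averaged per gene. No spot was saturated, and 16775 and 14700 of 30359 probes were detected on the OS and melatonin arrays. Precision is limited by the number of arrays. The step from spots to ratios was tested on simulated arrays. All measured members were named, as were members on 1 array and the 4 furthest genes of the signalling list; other signalling genes and the members named among those at background were chosen after their values were seen. The members, gene lists, motifs and thresholds were chosen with earlier results of these data known. Some genes of the lists are not reported here by value. Protein sequences, planned for the measured ligands, were not used here. Alternatives were other normalizations (quantile, equal medians, loess with a span of 0.3, normexp with an offset of 50), filters, detection flags, probe rules, fold thresholds and the authors' values. Calculations used Python 3.11.15, with normexp from limma 3.58.1.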

Additional observations from a re-analysis of the deposited data

How the results depend on the processing

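No member passed 2-fold in either direction, among those measured under each setting, with quantile normalization, equal medians, loess, normexp, the lower-quartile filter, the brightest probe, outlier spots kept or the authors' values, and the median ratio stayed within the spot SD of 0.16 of the value given. The filter on dim probes set the counts. Without it all 116 members counted, with 30 at least 2-fold higher (25.9%, against 12.3% of all 15164 genes), 3 lower (2.59% against 1.51%) and a median log2 ratio of 0.61 (0.16 over all genes), where negative control spots themselves had a log2 ratio of 0.87. With the positive and significant flag 54 members counted, 3 at least 2-fold higher (Cxcl9, Il20ra and Il36g; 5.56%, against 5.66% of all genes) and 3 lower (Ccl5, Ccl28 and Il11; 5.56% against 1.42%), none of them well above background on both arrays. At or above the lower quartile of mean signal 17 members were left. A threshold of 1.5-fold gave 1 lower member, Il2rg, and one of 3-fold gave 0 in each direction. Of the 26 members 20 kept 1 sign in each of the 10 alternatives that held them (11 higher, 9 lower; Ccl7, Cxcl1, Il15, Il17re, Il1rn and Il23a fell below the lower-quartile filter and were in 9), Il2rg between -0.74 and -0.66 and Ccl7 between 0.40 and 0.58. Ccl20, Cxcl12, Il1rl1, Il1rl2, Il3ra and Il6r turned sign in at least 1, for example Cxcl12 to -0.025 and Il1rl2 to 0.065 under normexp and Ccl20 to 0.078 by its brightest probe. No paired analysis was possible because each group has 1 array, and no replicate could be left out. Genes near background are the limit: the lowest detected relative signal was 0.048 in OS and 0.090 with melatonin.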
